A study of Penicillium oxalicum with 6 samples.

Results

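The 41 genes numbered POX01675 to POX01715 of the filamentous fungus Penicillium oxalicum, out of 9834 gene IDs, are described here by their transcript levels on cellulose with and without the gene POX06509. They were chosen by their ID numbers, around consecutive IDs whose expression was abundant and lower in the POX06509 mutant and spread widely among the Ku70 libraries. The fall and that spread are therefore given as a description, without p-values. RNA of mycelium was sequenced in 3 libraries of strain MuPOX06509 and 3 of strain Ku70, named F, S and T in each strain. Where 3 values of a strain are listed, they stand in that order. Spores had grown for 6 d at 28 °C on potato-dextrose agar, and about 1 g of hyphae was then shaken at 180 rpm in 100 mL of medium with 1% Avicel, a microcrystalline cellulose, for 24 h. MuPOX06509 is read here as a deletion mutant of POX06509 and Ku70 as the comparison strain, a mutant of the Ku70 gene; the strain labels do not state whether the deletion strain also lacks Ku70, and the growth protocol, the same for all libraries, names spores of MuKu70 alone. Loss of POX06509 and any other difference between the strains cannot be told apart. Whether a strain's libraries are separate cultures is not stated, so calls measure only how these libraries vary, which can be technical variation.

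Fungi that grow on cellulose secrete cellulases and xylanases, enzymes that cut plant polysaccharides into sugars, and transcription factors raise or lower whole groups of such genes together. Fungal genes that act in one pathway, such as those for a secondary metabolite or for the uptake and use of a nutrient, often lie side by side on a chromosome and share their regulation. Ku70 takes part in non-homologous end joining, a repair of DNA breaks, and its loss makes targeted gene deletion in fungi more efficient. No source used here gives the functions of POX01675 to POX01715 or says whether the numbers follow chromosome positions, so the genes are ordered below by level and by change.

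The libraries held 14605326 to 15219424 expected counts each. POX06509 had 0, 0 and 1 counts in the deletion strain and 1405, 2580 and 1851 in the Ku70 strain. Ku70 library S stood apart from the other Ku70 libraries. On the first principal component of all tested genes its score was 12.3, while Ku70 F and T scored 30.1 and 33.1 and the deletion libraries -26.3 to -24.4. Calls, fitted changes and spreads of the genes described below are therefore also given without it.

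Levels are given in FPKM, in which the count of fragments is divided by gene length and by library size. They ran from 0 to 2164 among the 41 genes. In the strain where each gene was higher, 9 genes had a mean of at least 100 FPKM, 14 had 10 to 100 FPKM and 18 had less than 10 FPKM. POX01695 was the most abundant of them in the Ku70 strain, where it ranked 149 of 9834 genes by mean FPKM. POX01708 was the most abundant in the deletion strain, where it ranked 153. The low genes gathered at the start of the number range. The first 10 IDs, POX01675 to POX01684, were all at or below 3.21 FPKM in every library. From POX01685 onward 23 genes reached a mean of 10 FPKM in at least 1 strain.

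**Figure D1:**
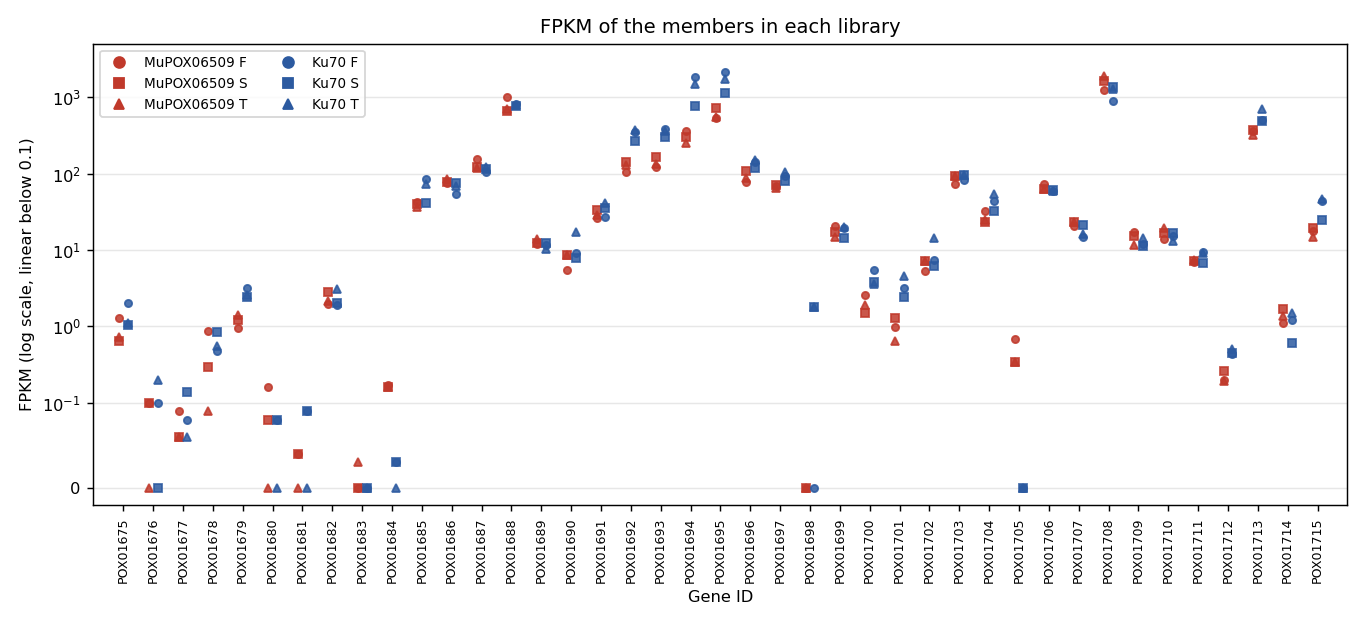
FPKM of each of the 41 genes in each library, on a vertical axis that is logarithmic above 0.1 and linear below. Red marks stand for the deletion libraries, blue marks for the Ku70 libraries, and the shape gives the letter; POX01692 to POX01695 show blue marks above red marks in every library.

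In 11 genes the counts were too low to test, at 0 to 11 in a library and 1 to 49 over all libraries. Where no read was counted, up to 3 could have been missed, which is 0.197 to 0.205 CPM (counts scaled to the library total) and covers counting error only. POX01683 had 1 count in all. POX01698 had 1 count each in Ku70 libraries S and T, and this single count was worth 1.80 and 1.77 FPKM, so its FPKM rests on a very short counted length and not on many reads. POX01684 had 5 counts in each deletion library and 1, 1 and 0 counts in the Ku70 strain. POX01705 had 2, 1 and 1 counts in the deletion strain and 0 in each Ku70 library. The remaining 30 genes entered edgeR's quasi-likelihood test, fitted on 8336 genes, and were called changed at a Benjamini-Hochberg adjusted p under 0.05.

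Of the 30 tested genes 9 were called lower in the deletion strain and 0 were called higher. Among all tested genes 7.27% were called lower and 5.33% higher; since the genes were chosen for their fall, nothing is read from the difference. The 9 genes were POX01679, POX01692, POX01693, POX01694, POX01695, POX01700, POX01701, POX01713 and POX01715. At an unadjusted p under 0.05, 1 gene was higher by edgeR (POX01707), 2 by DESeq2 (POX01684 and POX01708) and 0 by limma on log2(FPKM + 1). POX01684 is not among the 30 genes, because DESeq2 was run without edgeR's low-count filter. The shares of all genes at this unadjusted threshold are not given here, so nothing is read from these counts. After adjustment DESeq2 and limma called 0 genes higher. The fitted change was at least 2-fold downward in 8 genes, against 3.99% of all tested genes. Every deletion library lay below every Ku70 library in FPKM for 11 of the 30 genes, against 16.3% of all tested genes. The median log2 change of the 30 genes was -0.44, beside 0.01 for all tested genes. Fewer cells that express a gene and less RNA per cell cannot be told apart in such bulk libraries.

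**Figure D2:**
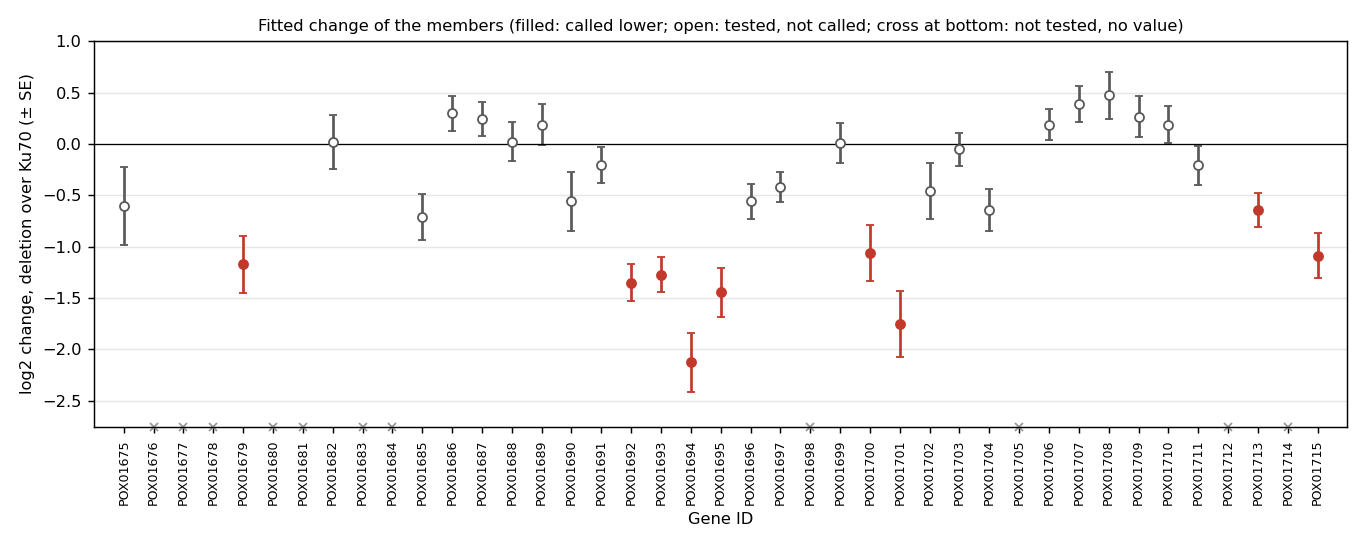
Fitted log2 change of each gene in the deletion strain relative to the Ku70 strain, with its approximate standard error. Filled red points are the 9 genes called lower and open points the 21 tested genes that were not called; POX01694 lies lowest, at -2.13.

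The 4 consecutive IDs POX01692 to POX01695 were both abundant and lower in the deletion strain. POX01692 was at 106, 144 and 129 FPKM in the deletion strain and at 356, 267 and 369 FPKM in the Ku70 strain. Its strain means were 126 ± 19.4 and 331 ± 55.5 FPKM (SD, n = 3 each), a log2 change of -1.35 ± 0.18 (SE), and -1.45 without Ku70 S. The strains did not overlap, and the lowest Ku70 library, S, still lay 123.0 FPKM above the highest deletion library.

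POX01693 was at 124, 163 and 136 FPKM in the deletion strain and at 390.4, 299 and 357 FPKM in the Ku70 strain. Its means were 141 ± 20.4 and 349 ± 46.3 FPKM (SD, n = 3 each), with a log2 change of -1.27 ± 0.17 (SE), and -1.34 without Ku70 S. POX01692 and POX01693 were thus close in level as well as in change. The ratio of their FPKM stayed between 0.854 and 1.03 in all 6 libraries.

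POX01694 had the largest fitted change of the 30 tested genes. It was at 365, 301 and 249 FPKM in the deletion strain and at 1845, 768 and 1517 FPKM in the Ku70 strain. The log2 change was -2.13 ± 0.28 (SE), or 4.37-fold. All Ku70 libraries were above all deletion libraries, but Ku70 S was far below the other Ku70 libraries. Without Ku70 S the log2 change was -2.40.

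POX01695 was at 529.8, 719 and 551 FPKM in the deletion strain and at 2164, 1126 and 1747 FPKM in the Ku70 strain. Its log2 change was -1.44 ± 0.24 (SE), or 2.72-fold, and -1.64 without Ku70 S. Again the strains did not overlap and Ku70 S was the lowest of its strain. POX01694 and POX01695 did not keep a fixed proportion. POX01695 had 1.15 to 1.47 times the FPKM of POX01694 in the Ku70 libraries and 1.45 to 2.39 times in the deletion libraries. The ratio was near its Ku70 values in deletion library F, at 1.45, and higher in deletion libraries S and T, at 2.39 and 2.21. Whether the change of POX01694 differed from those of its neighbours was not tested.

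**Figure D3:**
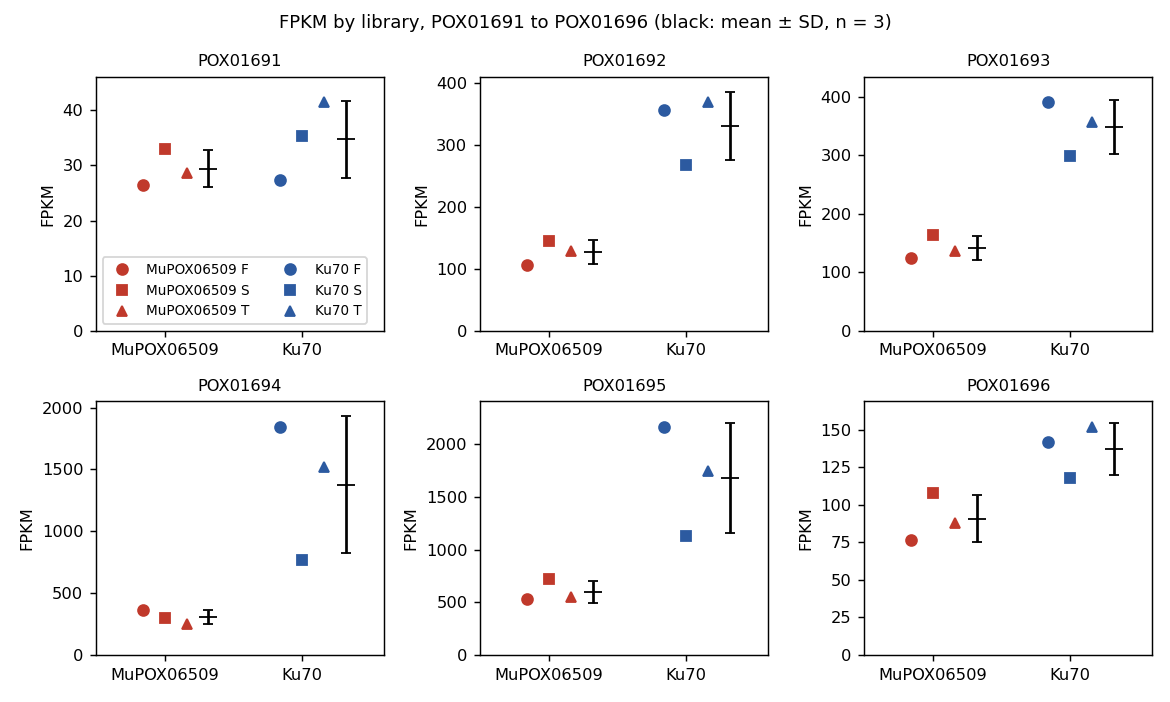
FPKM in each library for POX01692 to POX01695 and for the IDs on either side, POX01691 and POX01696, on linear axes from 0. Black bars give mean ± SD (n = 3); the strains are apart for POX01692 to POX01696 and overlap for POX01691.

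The neighbours of these 4 IDs had smaller fitted changes. POX01696 was at 76.7, 108.0 and 87.7 FPKM in the deletion strain and at 142, 118 and 152 FPKM in the Ku70 strain. The values did not overlap, and the log2 change of -0.56 ± 0.17 (SE) missed the threshold in edgeR, while DESeq2, the fit with the letter as a block and the fit without Ku70 S called it lower. POX01697 was at 68.1 ± 3.29 FPKM in the deletion strain and 93.5 ± 12.4 FPKM in the Ku70 strain (SD, n = 3 each), also without overlap and also not called. On the other side, POX01691 was at 26.5 to 33.0 FPKM in the deletion libraries and 27.4 to 41.5 FPKM in the Ku70 libraries, which overlap.

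Together POX01692 to POX01695 took 0.137% ± 0.018 of all counts in a deletion library and 0.406% ± 0.115 in a Ku70 library (SD, n = 3 each). Their share was 0.506% in Ku70 F (Wilson 95% interval 0.503% to 0.510%) and 0.281% in Ku70 S (0.278% to 0.283%); these intervals cover counting error only and say nothing of how libraries of a strain vary. On summed FPKM the Ku70 mean was 3.19 times the deletion mean, and 3.73 times without Ku70 S. The other 37 genes together gave 3498 ± 157 FPKM in the deletion strain and 3407 ± 323 FPKM in the Ku70 strain, a difference smaller than the spread between libraries. On CPM with TMM scaling the same sums were 4125 ± 428 and 3673 ± 449.8 (SD, n = 3 each). This difference was slightly larger than either SD. Within the FPKM sums POX01708 alone had a mean of 1600 in the deletion strain and 1175 in the Ku70 strain. The sums therefore do not show whether each gene stayed level. The 4 genes made up 22.5% to 27.7% of the summed FPKM of the 41 genes in the deletion libraries and 41.9% to 60.7% in the Ku70 libraries. Over all tested genes 2 runs of at least 4 consecutive IDs were called lower, and POX01692 to POX01695 is one of them.

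Outside these 4 IDs, 5 genes were called lower, 3 of them at low levels. POX01713 was at 362, 372 and 323 FPKM in the deletion strain and at 508, 495 and 694 FPKM in the Ku70 strain. The strains were apart by 123.0 FPKM, with Ku70 T the highest, and the log2 change was -0.64 ± 0.17 (SE). Without Ku70 S it was -0.70 and still called. POX01713 lost its call without Ku70 T, where the log2 change was -0.50, and also without Ku70 F (-0.72), deletion S (-0.68) or deletion T (-0.58).

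POX01715 was at 18.0, 19.4 and 15.0 FPKM in the deletion strain and at 43.7, 24.8 and 46.2 FPKM in the Ku70 strain. Its means were 17.5 ± 2.23 and 38.2 ± 11.7 FPKM (SD, n = 3 each). Its log2 change was -1.09 ± 0.22 (SE), and -1.29 without Ku70 S, the Ku70 library nearest to the deletion libraries. POX01701 fell from 3.37 ± 1.07 to 0.970 ± 0.325 FPKM (SD, n = 3 each), with a log2 change of -1.75 ± 0.33 (SE), and -1.92 without Ku70 S. Its 6 libraries held 18, 24 and 12 counts in the deletion strain and 61, 45 and 86 counts in the Ku70 strain, so this change rests on few reads. POX01679 fell from 2.74 ± 0.407 to 1.18 ± 0.221 FPKM (SD, n = 3 each) and was not called without Ku70 F or deletion S. POX01700 fell from 4.30 ± 0.988 to 2.01 ± 0.564 FPKM (SD, n = 3 each) and was not called without Ku70 F, deletion S or deletion T. Without Ku70 S both stayed called, with log2 changes of -1.21 for POX01679 and -1.10 for POX01700. These low genes were named after their values were seen.

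Other abundant genes in the same number range were not called. POX01708 was at 1237, 1648 and 1916 FPKM in the deletion strain and at 893, 1358 and 1275 FPKM in the Ku70 strain. The strains overlapped, since Ku70 S and T exceeded deletion F, and the log2 change was 0.47 ± 0.23 (SE). POX01688 was at 1008, 669 and 700.2 FPKM in the deletion strain and at 826, 766 and 805 FPKM in the Ku70 strain. Deletion F was the highest library and the other deletion libraries the lowest, and the log2 change was 0.02 ± 0.19 (SE). POX01687 was at 156, 122 and 119.6 FPKM in the deletion strain and at 105, 116 and 122 FPKM in the Ku70 strain, with a log2 change of 0.24 ± 0.16 (SE). The strains of POX01687 overlapped by a small margin, and its highest library was again deletion F. Without Ku70 S the log2 changes were 0.63 for POX01708, 0.03 for POX01688 and 0.29 for POX01687, and again none of the 3 was called.

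Among the 21 tested genes that were not called, 10 had a negative and 11 a positive log2 change, between -0.71 and 0.47. The lowest was that of POX01685, at 40.0 ± 3.59 FPKM in the deletion strain and 67.3 ± 23.0 FPKM in the Ku70 strain (SD, n = 3 each). Among the Ku70 libraries it was at 86.2 FPKM in F, 41.7 in S and 74.0 in T, so Ku70 S fell within the deletion range of 36.1 to 43.2 FPKM. POX01686 and POX01706 were above the Ku70 range in every deletion library without being called. The share of all tested genes with this pattern is not given here, so nothing is read from it. POX01686 was at 75.6 to 84.2 FPKM in the deletion libraries and 53.8 to 74.9 FPKM in the Ku70 libraries, and POX01706 at 62.1 to 74.2 FPKM and 58.5 to 60.7 FPKM.

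The other tested genes at 10 FPKM or more in either strain were not called, and in each the strains overlapped. POX01703 was at 72.5 to 94.7 FPKM in the deletion libraries and 83.3 to 96.2 FPKM in the Ku70 libraries. POX01704 was at 23.1 to 32.8 FPKM in the deletion libraries and 32.1 to 53.6 FPKM in the Ku70 libraries. POX01699, POX01709 and POX01710 stayed between 11.4 and 20.4 FPKM in all libraries. POX01689 was at 12.1 to 14.0 FPKM in the deletion libraries and 10.4 to 12.3 FPKM in the Ku70 libraries. POX01690 was at 5.43 to 8.63 FPKM in the deletion libraries and 7.77 to 17.4 FPKM in the Ku70 libraries.

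Below that level, POX01702 was at 5.24 to 7.26 FPKM in the deletion libraries and 6.24 to 14.2 FPKM in the Ku70 libraries, and POX01711 at 6.93 to 7.33 and 6.77 to 9.40 FPKM. POX01682 was at 1.89 to 3.13 FPKM over all libraries. Of the untested genes, POX01714 was at 0.61 to 1.70 FPKM, POX01678 at 0.09 to 0.87 FPKM and POX01712 at 0.19 to 0.26 FPKM in the deletion libraries and 0.44 to 0.50 FPKM in the Ku70 libraries. POX01676, POX01677, POX01680 and POX01681 were at or below 0.2 FPKM in every library.

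The spread among the Ku70 libraries varied strongly between genes. For the 23 genes with at least 10 FPKM in either strain, the highest Ku70 library had 1.04 to 2.40 times the FPKM of the lowest, with a median of 1.39. Among the deletion libraries the same ratio was 1.10 to 1.59 with a median of 1.32. For the 6379 tested genes above the same level the medians were 1.32 in the Ku70 strain and 1.27 in the deletion strain. The ratio reached 2 in the Ku70 libraries for 3 of the 23 genes, which is 13.0%, beside 5.27% of the 6379 genes, and in the deletion libraries for 0, beside 3.43%. Because the genes were chosen for their Ku70 spread, nothing is read from these differences. Between Ku70 F and T alone, a comparison added after the data were seen, the ratio was 1.02 to 1.89 over the 23 genes. Its median was 1.16, and 0 of the 23 genes reached 2. Over the 6379 genes the median was then 1.12, and 1.30% reached 2. Leaving out a library can only lower this ratio or leave it the same. The ratio was not taken without F or without T, so the part of S in the spread was not tested.

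Among the 23 genes POX01694 had the widest spread, 2.40 in the Ku70 libraries beside 1.46 in the deletion libraries. Its Ku70 value was 1.22 without S. POX01690 followed with 2.23 and 1.59, and with 1.89 in the Ku70 libraries without S. POX01685 had 2.07 and 1.2, and 1.16 without S. POX01695 had 1.92 and 1.36, and 1.24 without S, while its neighbours POX01692 and POX01693 had 1.38 and 1.31 in the Ku70 libraries, about as much as their 1.37 and 1.32 in the deletion libraries. The narrowest Ku70 spreads were those of POX01706, at 1.04, and of POX01688, at 1.08, although POX01688 varied by 1.51 among the deletion libraries.

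**Figure D4:**
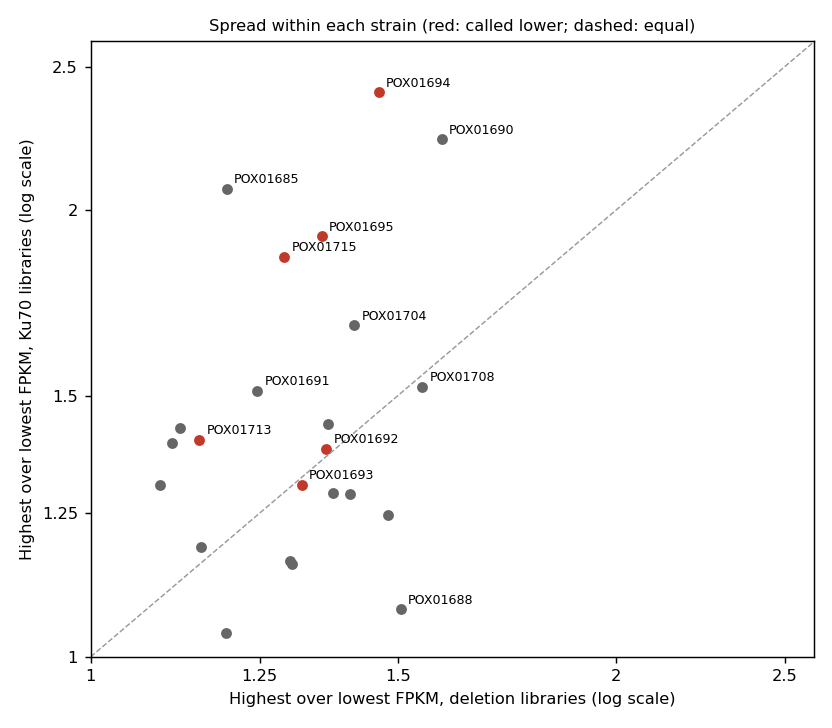
Ratio of the highest to the lowest FPKM among the Ku70 libraries (vertical, log scale) against the same ratio among the deletion libraries (horizontal, log scale) for the 23 genes with at least 10 FPKM in either strain. Red points were called lower, the dashed line marks equal spread, and POX01694 stands highest at 2.40, which is 1.22 without Ku70 S.

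Ku70 library S was the lowest Ku70 library for 14 of these 23 genes and the highest for 7. Over all tested genes at this level it was the lowest for 49.4% and the highest for 30.3%. It was the lowest for 8 of the 9 genes called lower, the exception being POX01700, and for 85.1% of all tested genes called lower. On a scale from 0 at the mean of Ku70 F and T to 1 at the deletion mean, S lay at 0.66 for POX01694, 0.61 for POX01695, 0.40 for POX01692 and 0.32 for POX01693. Over the 9 genes it lay between 0.25, for POX01679, and 0.73, for POX01715. POX06509 itself was highest in S, with 93.1 FPKM against 50.0 and 66.0 FPKM in F and T. The part of this library in the results was not tested beyond leaving it out.

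Without Ku70 S, 13 of the 30 genes were called lower and 1, POX01707, higher, while 13.3% and 12.4% of all tested genes were called lower and higher. POX01685, POX01696, POX01697 and POX01704 were then called lower besides the 9, with log2 changes of -0.94, -0.63, -0.48 and -0.79. The run of consecutive IDs called lower grew from 4 to 6, POX01692 to POX01697. Runs over all tested genes were not counted without Ku70 S, so nothing is read from this growth. POX01707, at 20.9 to 23.5 FPKM in the deletion libraries, had 14.8 and 16.3 FPKM in Ku70 F and T and 21.1 FPKM in S.

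Genes that fell together did not all follow each other from library to library. The likeness of 2 genes was described by Pearson's r of their log2(FPKM + 1) deviations from the strain means over the 6 libraries, for the 22 genes with a mean of at least 10 FPKM over all libraries. The deviations leave out the strain difference but keep the Ku70 spread for which the genes were chosen, and all pairs share the same 6 libraries, so the values are a description. Each is also given without Ku70 S, over 5 libraries, an alternative added after the data were seen. Among POX01692, POX01693, POX01694 and POX01695 the 6 values ran from 0.50 to 0.93, and POX01694 was the odd one. POX01692 and POX01693 had r = 0.92, and 0.85 without S, and POX01693 and POX01695 had r = 0.93, and 0.95 without S. POX01694 had 0.50 with POX01692, 0.55 with POX01693 and 0.80 with POX01695. Without S these values were -0.62, -0.14 and 0.16. With so few libraries r can move far when any of them is left out, and only S was left out. Whether the likeness of POX01694 to these neighbours rests on S in particular was therefore not tested.

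The gene most like POX01694 was POX01685, 9 numbers away, with r = 0.99, and 0.96 without S. The gene most unlike it over 6 libraries was POX01707, with r = -0.99, and -0.95 without S. Without S the gene most unlike POX01694 was POX01708, at -0.97, beside -0.77 over 6 libraries. POX01692 was closest to POX01696, with r = 0.95 in both cases, so the uncalled neighbour followed POX01692 more closely than POX01694 did. The abundant POX01708 followed POX01703 (r = 0.94, and 0.95 without S) and POX01686 (r = 0.87 in both cases). Without S it was closest to POX01707, at 0.99, beside 0.77 over 6 libraries. Over all 231 pairs the lowest r was -0.99, the highest 0.99 and the median 0.08. Without S the lowest was -0.97, the highest 0.99 and the median 0.11.

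**Figure D5:**
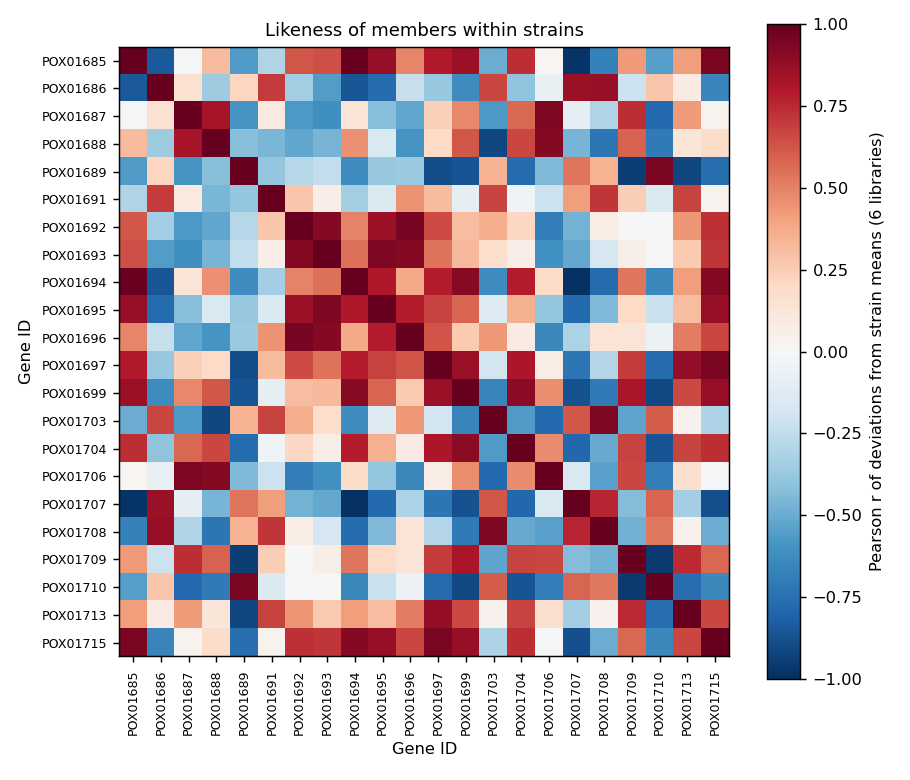
Pearson's r of log2(FPKM + 1) deviations from the strain means over 6 libraries, for each pair of the 22 genes, both axes in order of ID number and colour from -1 (blue) to 1 (red). POX01692, POX01693, POX01695 and POX01696 form a red square, and POX01694 is paler beside POX01692 and POX01693.

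No gene of the range had a fractional expected count in any library, whereas 457 of all 9834 genes had one, so none of these values shows reads divided between similar genes. The counted length implied by count and FPKM could be worked out for 31 of the 41 genes and ran from 435 to 4173 bases. Its median was 1253 bases, the same as over the 8411 genes with a value. POX01694 was short, at 636 bases, while POX01692, POX01693 and POX01695 were at 1901, 1450 and 1222 bases. On counts rather than FPKM, POX01694 therefore weighs less. It had 17862 counts in Ku70 F beside 40269 for POX01695, while their FPKM there were 1845 and 2164.

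POX01675, the first ID, was at 0.64 to 1.30 FPKM in the deletion libraries and 1.03 to 2.02 FPKM in the Ku70 libraries, and POX01674, just outside, at 7.99 to 9.50 FPKM and 11.8 to 15.3 FPKM. POX01715, the last ID, was among the genes that fell, and POX01716, just outside, was at 49.3 to 61.4 FPKM in the deletion libraries and 52.4 to 53.5 FPKM in the Ku70 libraries.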

How the data were processed

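The authors deposited an expected count (an estimated count per gene, in which reads fitting several genes are divided) and an FPKM value for each gene of each library, per the file headers. Tools listed in the submitters' processing notes, without their roles, are BWA 0.7.10-r789, RSEM 1.2.12, DESeq2 and Bowtie2 2.1.0. No source used here gives the genome build, annotation or strand setting, so overlapping genes cannot be separated. After rounding, edgeR 4.0.16 (R 4.3.3) was run on the expected counts (TMM, filterByExpr with a minimum count of 10, quasi-likelihood F test, strain as the only term), with p-values adjusted over all 8336 tested genes. Standard errors are approximate, being the log2 change over the square root of F. The fit was tested on simulated counts with known changes. Alternatives were no low-count filter, DESeq2 size factors, DESeq2 1.42.0, limma 3.58.1 on log2(FPKM + 1) for genes at FPKM of at least 1 in 3 libraries, its pseudocounts of 0.1 and 5, the replicate letter as a block, and leaving out each library from the same genes. Intervals cover counting error only, as no molecular identifiers are named.

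All 41 IDs are accounted for. Values in every library are given for genes with a mean of at least 100 FPKM in the higher strain and for the longest run called in 1 direction, strain means for called genes of 10 to 100 FPKM, and ranges for the others. Genes and tests were chosen with earlier results of these data known. The RefSeq gene table supplied shares 0 of the 9834 IDs, so no gene name, function list, position or sequence is given. Figures and summaries used Python 3.11.15.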

Additional observations from a re-analysis of the deposited data

How the results depend on the processing

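The 9 genes kept their direction in all 13 alternatives, and 6 of them, POX01692, POX01693, POX01694, POX01695, POX01701 and POX01715, were called lower in each. The number called lower was 9 in every edgeR and limma alternative that used all libraries without a block, and 6 to 13 without 1 library. DESeq2 called 12. The letters do not clearly pair the libraries: the deviations of the F libraries from their strain means correlated at 0.388, those of S at 0.0628 and those of T at 0.0539, and only deletion F correlated best with its own letter in the Ku70 strain. With the letter as a replicate block 12 genes were called lower. The share of all tested genes called lower was taken only in the main fit, 7.27%, and without Ku70 S, 13.3%. Nothing is therefore read from the counts of the other alternatives. No gene was called higher except 1 without the low-count filter (POX01684, with few counts) and 0 to 1 without 1 library (POX01707, without Ku70 S). A pseudocount of 5 left 4 genes at least 2-fold lower, since it shrinks the change of low genes. The median log2 change was -0.33 in limma on log2(FPKM + 1), -0.20 with a pseudocount of 5, and -0.55 (without Ku70 S) to -0.17 (without Ku70 T) when 1 library was left out. The summed level of the 41 genes differed by a log2 ratio of -0.61 on FPKM. That ratio was -0.51 on the share of all counts and -0.48 on CPM with TMM scaling. Why these values differ was not tested. At this depth the 11 genes with 1 to 49 counts in all were left out of the test. Without Ku70 S the Ku70 spread of POX01694 went from 2.40 to 1.22 and that of POX01695 from 1.92 to 1.24.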

Other observations

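POX01690 and POX01702 had nearly the same counts in most libraries, although 12 numbers apart; the pair was picked after its values were seen. POX01690 had 141, 228 and 227 counts in the deletion strain (libraries F, S, T) and 248, 207 and 468 in the Ku70 strain. POX01702 had 169, 238 and 238 counts in the deletion strain (libraries F, S, T) and 250, 206 and 475 in the Ku70 strain. The ratio of POX01702 to POX01690 was 0.995 to 1.2 over the 6 libraries, with deletion F the highest. Both were highest in Ku70 T, and neither was called changed. Their implied lengths differ, 1773 and 2198 bases, so their FPKM are less alike than their counts.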
